A study of Mus musculus with 10 samples.

Results

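The 34 genes described here make or handle the ceramides and related lipids of the outer skin barrier. They were chosen by name for their known roles, by a rule that uses no measured value but with earlier results of these data known, and were matched through Ensembl identifiers to mouse gene symbols of build GRCm38. All 34 were found among the 17983 genes that the files list, and all 34 had a value in each of the 10 libraries. They fall into 7 steps, with 10 genes of ceramide synthesis, 3 of head group transfer, 3 of fatty acid elongation, 4 of omega-hydroxylation and acylceramide formation, 4 of the lipoxygenase pathway, 3 of lamellar transport and 7 hydrolases.

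RNA of keratinocytes, the cells that build the epidermis, was sequenced from mouse back skin after the epidermis had been lifted off with dispase and dissociated with trypsin. Knockout mice had the genotype Gsdma1KO/KO;Gsdma3fx/fx;K14-Cre, in which K14-Cre deletes the floxed Gsdma3 in keratinocytes and both copies of Gsdma1 are labelled as knockout alleles. Controls were labelled wild type, so the labels give them no Cre and no floxed allele. The dorsal skin of both genotypes was rubbed 2 times a day over 3 days with acetone and olive oil (4 parts to 1) or with water, and the samples were taken on day 5. There were 3 knockout libraries under olive oil/acetone, 2 knockout libraries under water, 3 control libraries under olive oil/acetone and 2 control libraries under water. The sources used here do not give strain, age or sex, nor do they say that separate animals stand behind the libraries. Every p-value below therefore measures only the spread from library to library, and that spread may be technical.

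The water barrier of skin is a stack of ceramides, cholesterol and free fatty acids between the dead cells of the stratum corneum. Keratinocytes assemble ceramides from serine and palmitate, lengthen and omega-hydroxylate their fatty acids, load them into lamellar bodies in the granular layer and secrete them. Lipoxygenases then oxidise the linoleate of acylceramides, which leads to their attachment to the cornified envelope, and hydrolases release the final lipids from their precursors. Acetone extracts these lipids, and inherited loss of several of these enzymes causes ichthyosis in humans.

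Recovered depth was 15914663 to 21812292 reads per library, and values below are normalised read counts. Gsdma3 had 1 read over the 3 knockout olive oil/acetone libraries and 3 reads over the 2 knockout water libraries, against 296 and 367 reads in the matching control groups. Gsdma, the annotation's name for Gsdma1, had 170 to 843 normalised counts in knockout libraries and 200 to 732 in control libraries, and the part removed by its knockout allele is not given in the labels, so its level does not check the genotype. The keratinocyte markers Krt5 and Krt14 were abundant in every library. Summed counts of 4 Y-linked genes were 3593 to 4976 in the 6 olive oil/acetone libraries and 0 in all 4 water libraries, so treatment and a difference in the sex of the animals cannot be told apart in any comparison of treatments. Knockout olive oil/acetone replicate 2 and control water replicate 2 stood apart: their summed hair shaft and root sheath markers were 2640 and 11801, against 130 to 845 in the other 8 libraries. Several counts and medians that change with one of these libraries are also given without it.

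The promoters of 3 members are shown here because 2 of them belong to the members called by the test and the third belongs to the desaturase paired with one of them. Degs2, which desaturates and also 4-hydroxylates dihydroceramide, was the member that rose. Its paralogue Degs1, the general dihydroceramide desaturase, is the second most abundant member per kb of exon. Sptlc3, a catalytic subunit of serine palmitoyltransferase, the first enzyme of the pathway, was the member that fell. Each window runs from 250 bases before to 50 bases after the RefSeq start site in GRCm38.p6, 5′ to 3′ on the gene's strand, and capitals mark matches to the AP-2 letters GCCNNNGGC.
Degs2, chr12:108702257-108702556, minus strand: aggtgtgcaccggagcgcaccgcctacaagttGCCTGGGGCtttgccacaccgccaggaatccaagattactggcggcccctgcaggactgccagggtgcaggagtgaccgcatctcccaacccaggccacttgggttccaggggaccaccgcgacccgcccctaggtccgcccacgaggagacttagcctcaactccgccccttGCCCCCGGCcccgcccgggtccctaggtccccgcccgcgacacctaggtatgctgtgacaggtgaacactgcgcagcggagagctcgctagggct
Degs1, chr1:182282146-182282445, minus strand: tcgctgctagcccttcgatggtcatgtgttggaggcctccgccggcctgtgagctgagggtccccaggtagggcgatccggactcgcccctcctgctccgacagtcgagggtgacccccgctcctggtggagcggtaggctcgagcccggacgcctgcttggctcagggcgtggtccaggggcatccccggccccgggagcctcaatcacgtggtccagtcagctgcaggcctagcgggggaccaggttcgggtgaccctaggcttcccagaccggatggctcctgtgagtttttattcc
Sptlc3, chr2:139493663-139493962, plus strand: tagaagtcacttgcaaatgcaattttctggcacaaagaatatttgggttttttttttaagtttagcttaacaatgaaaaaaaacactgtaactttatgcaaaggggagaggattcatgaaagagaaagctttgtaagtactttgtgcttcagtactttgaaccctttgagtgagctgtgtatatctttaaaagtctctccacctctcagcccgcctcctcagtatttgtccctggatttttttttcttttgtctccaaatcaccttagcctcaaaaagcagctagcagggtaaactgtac
The Degs2 window held 2 matches, at bases -218 to -210 and -45 to -37 from the start site, and the other 2 windows held none. Of all 32851 promoter windows, 16.6% held these letters on either strand. Of the 38 windows of members, 13 held them, and these belong to 11 of the 28 members with a promoter entry. The windows of Degs2 and Degs1 had a GC content of 67.7% and 67.3%, and that of Sptlc3 had 37.3%, where all windows had a median of 52.7% and ran from 36.3% to 73.7% between their 5th and 95th percentiles. None of the 3 windows held any other of the 8 motifs searched. The 7 others and their share of all windows were TATAAA 13.6%, CCAAT 37.4%, the KLF-type letters GGGTGNGG 16.6%, the AP-1 letters TGANTCA 7.81%, the PPAR/RXR DR1 motif 0.0396%, the grainyhead letters AACCGGTT 0.146% and the SREBP letters TCACCCCAC 0.551%. These matches describe letters in a window and say nothing of binding. Fa2h, Smpd3, Asah1, Aloxe3, Lipk and Dgat2 were not among the 28.

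Levels per kb of exon, taken as the mean of the 4 group means, ran over a wide range among the members. Elovl4, the elongase that makes the ultra-long fatty acids of acylceramides, stood highest at 1488 normalised counts per kb. Degs1 followed with 1110 and Elovl1, an elongase of saturated very long chain fatty acids, with 906 per kb. Dgat2, a diacylglycerol acyltransferase, had 502, Sptlc3 458 and Cers3, the ceramide synthase that takes ultra-long acyl chains, 442 per kb. Lowest were Lipn with 62.7, Lipk with 30.7 and Degs2 with 20.1 per kb. Lipn and Lipk belong to the acid lipase family expressed in differentiating epidermis. The desaturase Degs1 thus stood near the top of the order and its paralogue Degs2 at the bottom. Many neighbours in the middle of this order, such as Abca12, Alox12b, Abhd5, Acer1 and Asah1 at 328 to 304 per kb, had group means whose ranges overlapped. Exons of 10 members share bases with a gene on the other strand, from 10 of 10546 exonic bases for Sgms1 to 1219 of 3489 for Lipm. The sources used here do not give the strand setting of the counting, so reads within the shared bases cannot be told apart.

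**Figure D1:**
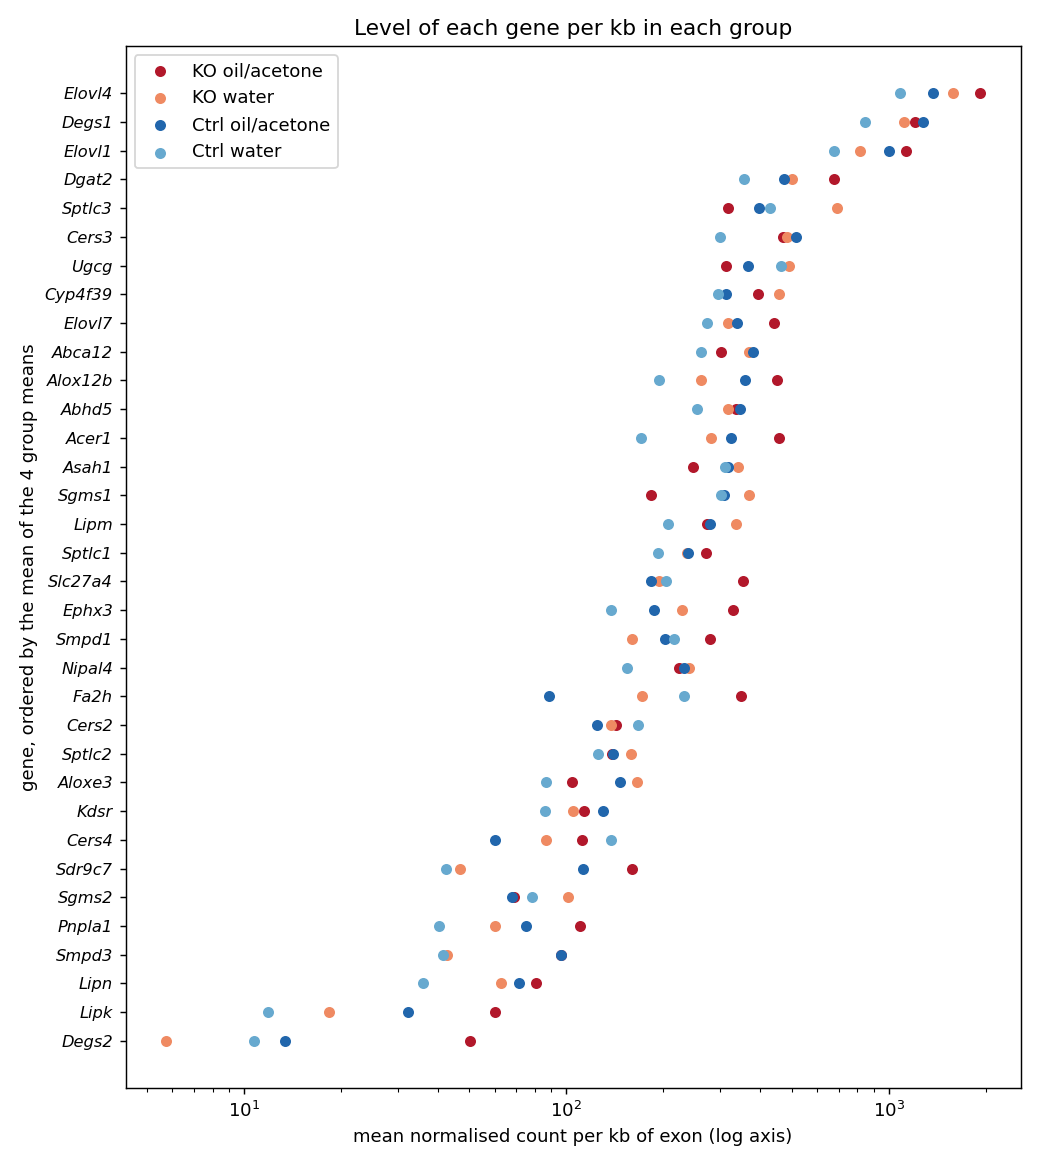
Mean normalised count per kb of exon (x axis, log scale) of each of the 34 genes (rows) in the 4 groups (coloured points, no error shown). Elovl4, Degs1 and Elovl1 lie at the top and Degs2 at the bottom, where its knockout olive oil/acetone mean lies to the right of its other 3 group means.

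Ceramide synthesis held both members that the test called. Degs2 had 70.4, 201 and 119 normalised counts in knockout olive oil/acetone libraries 1, 2 and 3, and 11.5 and 18.2 in knockout water libraries 1 and 2. It had 27.9, 28.7 and 47.2 in control olive oil/acetone libraries, and 11.5 and 44.0 in control water libraries. The 3 knockout olive oil/acetone libraries lay above all 7 others, while the 2 control groups overlapped. In knockouts Degs2 rose by 2.95 ± 0.59 on the log2 scale (SE), a 7.75-fold difference (limma, adjusted p = 0.018), the lowest adjusted p of any member. Its difference between knockout and control under olive oil/acetone was 1.80 ± 0.53 (limma adjusted p = 0.319), and the interaction of genotype and treatment was 2.41 ± 0.83 (limma adjusted p = 0.372), so neither passed the threshold of 0.05. The interaction ran from 1.11 to 3.34 when 1 library was left out. The call in knockouts was lost without knockout olive oil/acetone replicate 2 (2.58, limma adjusted p = 0.0592) or replicate 3 (2.96, limma adjusted p = 0.0611), and without either knockout water library (2.64 and 3.27, limma adjusted p = 0.155 and 0.113). Over all 18 alternatives its adjusted p ran from 3.2e-05 to 0.155. Of the 2583 exonic bases of Degs2, 278 also lie in exons of Evl on the opposite strand. Evl had 255, 323 and 523 in knockout olive oil/acetone libraries and 177 and 178 in knockout water libraries, and it also rose in knockouts, by 0.98 ± 0.28 (limma adjusted p = 0.0445). Whether Evl reads contribute to Degs2 was not tested. In bulk RNA of this kind, fewer cells of a type and less RNA per cell cannot be told apart.

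Sptlc3 went the other way. It had 816, 1215 and 668 normalised counts in knockout olive oil/acetone libraries, and 1820 and 2108 in knockout water libraries. It had 1146, 914 and 1326 in control olive oil/acetone libraries, and 1271 and 1168 in control water libraries. The 2 knockout water libraries were the highest of the 10, and all 3 knockout olive oil/acetone libraries lay below them. In knockouts Sptlc3 fell by 1.17 ± 0.24 on the log2 scale, to 0.445 of its level under water (limma adjusted p = 0.0206). Knockout minus control was 0.68 ± 0.27 under water (limma adjusted p = 0.963), and the interaction was -1.04 ± 0.34 (limma adjusted p = 0.372). Its call was kept without knockout olive oil/acetone replicate 2 and lost without replicate 3 (-0.98, limma adjusted p = 0.0657) or without knockout water replicate 1 (-1.28, 0.134) or 2 (-1.06, 0.153). Over its 18 alternatives the adjusted p ran from 0.000987 to 0.153. Between its highest and lowest library Sptlc3 differed 3.16-fold. Of its partner subunits, Sptlc2 differed 1.40-fold on this measure, the least of any member. Sptlc1 differed 2.24-fold, from 575 to 1286 normalised counts.

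Of the other genes of ceramide synthesis, Cers4 and Fa2h differed most between treatments in controls, and are given here because of the values seen. Cers4, a ceramide synthase of long acyl chains with a role in the hair follicle and sebaceous gland in mice, had 895, 1901 and 1326 normalised counts in knockout olive oil/acetone libraries and 1125 and 993 in knockout water libraries. In controls it had 954, 539 and 721 under olive oil/acetone and 1820 and 1563 under water. The control groups did not overlap and the knockout groups did. Its log2 difference in controls was -1.23 ± 0.30 (limma adjusted p = 0.193) and its interaction 1.54 ± 0.43 (limma adjusted p = 0.356). Fa2h, which 2-hydroxylates the fatty acids of sphingolipids, had 394, 2018 and 730 in knockout olive oil/acetone libraries and 529 and 504 in knockout water libraries. Control libraries had 206, 162 and 427 under olive oil/acetone and 580 and 811 under water. Knockout olive oil/acetone replicate 2 stood far above the other 9 libraries, and the control groups did not overlap. Knockout minus control under olive oil/acetone was 1.78 ± 0.52 for Fa2h (limma adjusted p = 0.319). It was 1.14 without knockout olive oil/acetone replicate 2. Sebocyte markers, 11 of 12 of them listed, summed to 20148 in that replicate, to 9871 and 12293 in the other 2 knockout olive oil/acetone libraries and to 7659 to 14650 in the remaining 7 libraries. In controls 1 of 11 of these markers had a positive difference and the median was -0.69. This count depends in part on control water replicate 2. Awat1 had 15.0, 8.60 and 29.7 in control olive oil/acetone libraries, and 8.60 and 45.0 in control water replicates 1 and 2. Elovl3 had 98.8, 66.9 and 160 against 87.0 and 162. The part of sebaceous cells in the values of Cers4 and Fa2h was not tested.

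Degs1, Kdsr and Cers3 had higher values in controls under olive oil/acetone, with no overlap, as did 12.2% of all genes. Degs1, the desaturase, had 3336, 3445 and 3115 there, against 2486 and 1900 in control water libraries, a log2 difference of 0.60 ± 0.16 (limma adjusted p = 0.209). Kdsr, the reductase that follows serine palmitoyltransferase, had 1119, 978 and 1079 against 801 and 596 (0.61 ± 0.18, limma adjusted p = 0.224). Cers3 had 1829, 1542 and 1676 against 1033 and 922 (0.78 ± 0.23, limma adjusted p = 0.242). In knockouts none of these 3 genes separated by treatment. Cers2, the ceramide synthase of very long chains in most tissues, had 366 to 627 in all 10 libraries.

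**Figure D2:**
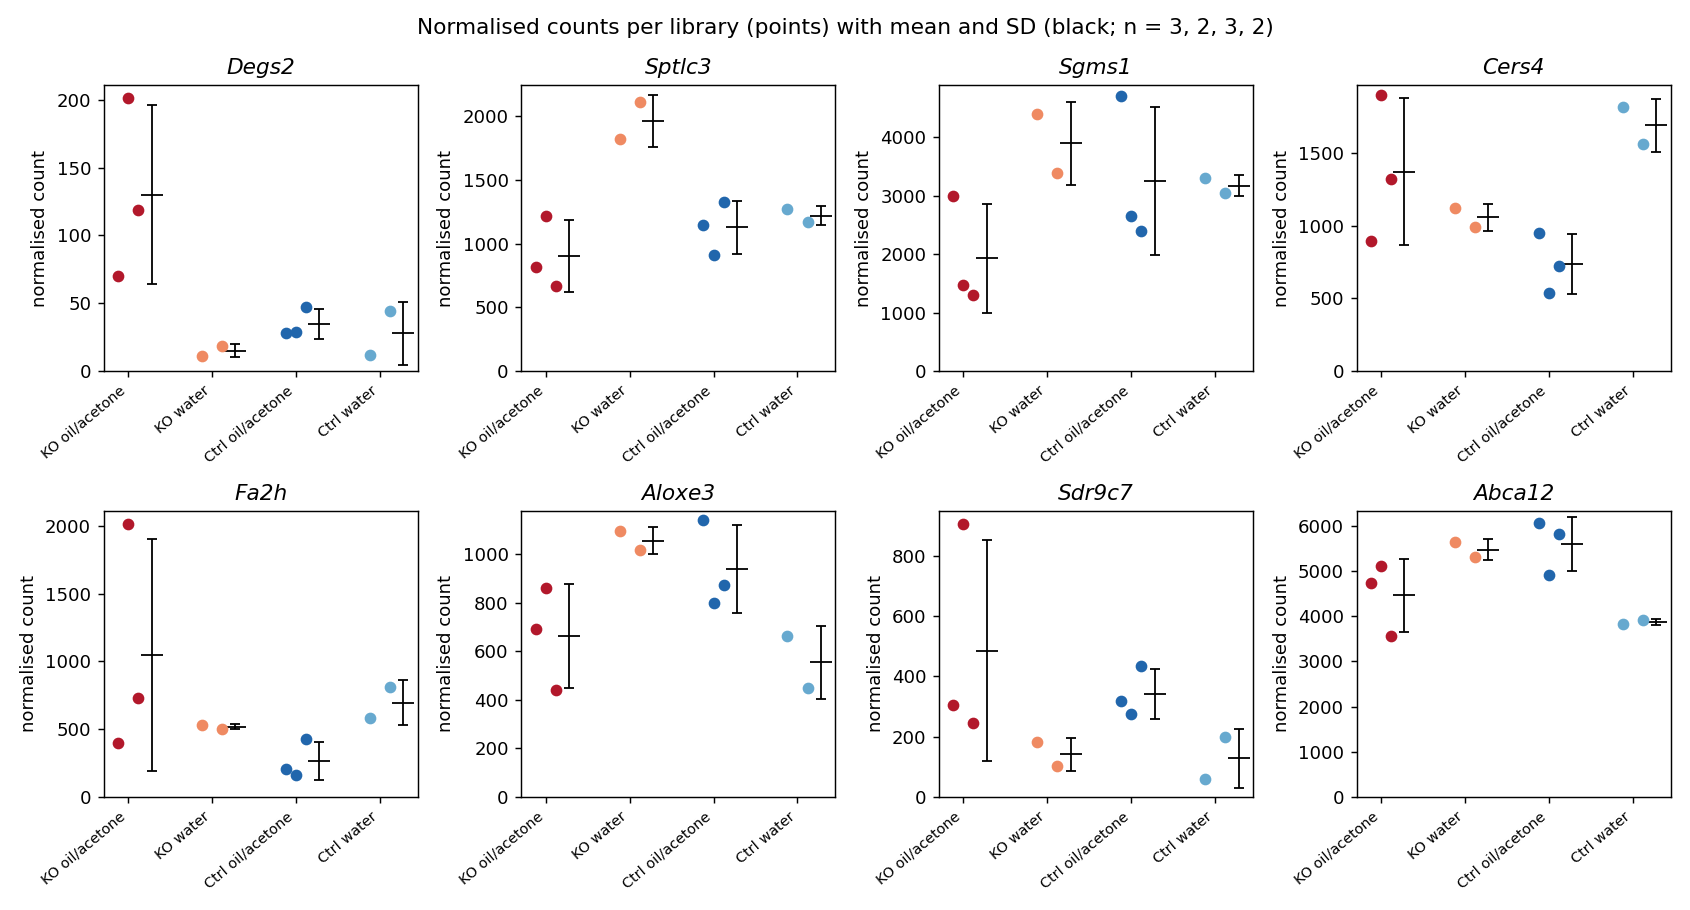
Normalised count (y axis) in each library of 8 genes, with 1 panel a gene, points for libraries, and a dash with a bar for the mean ± SD of each group (n = 3 or 2). Degs2 in knockout olive oil/acetone libraries (70.4 to 201) lies above all others, and Sptlc3 in knockout water libraries (1820 and 2108) above all others.

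The 3 head group enzymes had negative differences under olive oil/acetone in both genotypes, with medians of -0.68 in knockouts and -0.23 in controls, and none was called. Without control water replicate 1 the median in controls was -0.02, with 1 of 3 positive. Sgms1, a Golgi sphingomyelin synthase, had 3004, 1478 and 1301 normalised counts in knockout olive oil/acetone libraries and 4396 and 3396 in knockout water libraries. It had 4712, 2662 and 2401 in control olive oil/acetone libraries and 3298 and 3051 in control water libraries. Knockout groups did not overlap and control groups did. The log2 difference in knockouts was -1.11 ± 0.36, just outside the threshold with limma (adjusted p = 0.0632) and inside it with DESeq2 (adjusted p = 0.0411), with 0.0159 to 0.305 over its 18 alternatives. Sgms2, the plasma membrane sphingomyelin synthase, had 315 to 569 in knockouts under olive oil/acetone and 622 and 641 under water (-0.60 ± 0.26, limma adjusted p = 0.131). Ugcg, which makes the glucosylceramide that lamellar bodies carry, had 1224 to 2026 in knockouts under olive oil/acetone and 2519 and 2599 under water. All 3 enzymes were thus lower without overlap in knockouts, as were 29.2% of all genes, and none of the 3 was in controls, where 12% of all genes were.

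The 3 elongases had positive differences in all 4 pairwise comparisons, with medians of 0.30 to 0.38, and none was called. In both comparisons that use the knockout olive oil/acetone group these directions rest on its replicate 2. Without it, 2 of 3 were positive against knockout water (median 0.04) and 1 of 3 against control olive oil/acetone (median -0.15). The other pairwise comparisons use the control water group, whose replicate 1 was the lowest of the 10 libraries for Elovl1, Elovl4 and Elovl7. The elongases' median deviation from their means over the 10 libraries was -0.70 in that library and -0.16 in control water replicate 2. Elovl1 had 2207, 4689 and 2373 normalised counts in knockout olive oil/acetone libraries and 2321 and 2136 in knockout water libraries. Control libraries had 2674, 2326 and 3172 under olive oil/acetone and 1494 and 2189 under water. Control groups did not overlap, and knockout olive oil/acetone replicate 2 was the highest of the 10 libraries. The same library was highest for Elovl4, with 9986 against 2649 to 5218 in the other 9 libraries. The other 2 knockout olive oil/acetone libraries had 3367 and 4045 of Elovl4, below both knockout water libraries at 4679 and 4893. Replicate 2 was also the highest for Elovl7, a further elongase of long acyl chains, with 2429 against 967 to 1593. Elovl1 shares 53 exonic bases with Cdc20 on the other strand, and Cdc20 rose in knockouts (1.91 ± 0.25, limma adjusted p = 0.0067).

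The 4 genes of omega-hydroxylation and acylceramide formation all had positive differences between treatments in controls, and between genotypes under water, and none was called. Between treatments in controls 3 of 4 were positive without control water replicate 1. Abhd5, the co-activator of the acylceramide transacylase Pnpla1, had 2086, 2221 and 1709 normalised counts in knockout olive oil/acetone libraries and 1768 and 2023 in knockout water libraries. It had 2115, 2021 and 2027 in control olive oil/acetone libraries and 1398 and 1635 in control water libraries, groups that did not overlap (0.44 ± 0.15, limma adjusted p = 0.284). Pnpla1 had 249, 363 and 478 in controls under olive oil/acetone and 144 and 245 under water (0.90 ± 0.38, limma adjusted p = 0.353). Cyp4f39, the mouse counterpart of the human omega-hydroxylase CYP4F22, had 772 to 1681 in the 10 libraries. Dgat2 had 842 to 3562. The highest value of each of these 4 genes was in knockout olive oil/acetone replicate 2.

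The lipoxygenase pathway had a median of 0.84 on the log2 scale in controls, as did the hydrolases, and all 4 of its genes were higher without overlap there, as were 12.2% of all genes. Aloxe3, the hydroperoxide isomerase that acts on the product of Alox12b, had 691, 863 and 439 normalised counts in knockout olive oil/acetone libraries and 1095 and 1018 in knockout water libraries. It had 1143, 798 and 872 in control olive oil/acetone libraries and 662 and 449 in control water libraries. Treated libraries lay below water libraries in knockouts and above them in controls, without overlap in either. The log2 differences were -0.72 ± 0.28 in knockouts (limma adjusted p = 0.101) and 0.76 ± 0.28 in controls (limma adjusted p = 0.306). The test of their difference gave -1.49 ± 0.40, the lowest interaction p of any member, with a limma adjusted p of 0.356 and 0.0632 to 0.855 over 17 alternatives. Sdr9c7, a dehydrogenase that acts on the oxidised acylceramide, had positive differences in both genotypes, with 306, 907 and 244 against 181 and 103 in knockouts and 318, 275 and 435 against 59.6 and 198 in controls (1.57 ± 0.59 and 1.62 ± 0.59, limma adjusted p = 0.091 and 0.298). These values depended on single libraries: the difference in knockouts was 1.00 without knockout olive oil/acetone replicate 2, and that in controls was 0.76 without control water replicate 1 and 2.48 without replicate 2. Alox12b, the lipoxygenase that starts the pathway, had 600 to 1896 under olive oil/acetone and 567 and 708 under water in knockouts, and 663 to 1038 and 334 and 609 in controls. Ephx3, an epoxide hydrolase, had 304 to 1328 in the 10 libraries.

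Of the 3 transport genes, none was called. Abca12, the lipid transporter of lamellar bodies, had 4727, 5111 and 3559 normalised counts in knockout olive oil/acetone libraries and 5641 and 5312 in knockout water libraries. It had 6065, 4915 and 5818 in control olive oil/acetone libraries and 3829 and 3917 in control water libraries. As for Aloxe3, treated libraries lay below water libraries in knockouts and above them in controls. The log2 difference in controls was 0.53 ± 0.17 (limma adjusted p = 0.271), and the interaction was -0.84 ± 0.25 (limma adjusted p = 0.356). Slc27a4, a fatty acid transport protein with acyl-CoA synthetase activity, had 2642 in knockout olive oil/acetone replicate 2 and 633 to 1218 in the other 9 libraries. Nipal4, a membrane protein whose loss causes ichthyosis in humans, had 718 and 940 in knockout water libraries and 554 and 512 in control water libraries (0.62 ± 0.28, limma adjusted p = 0.963).

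Among the hydrolases, 5 of 7 had positive differences in knockouts and 6 of 7 in controls under olive oil/acetone, and none was called. The counts were 4 of 7 in knockouts without knockout olive oil/acetone replicate 2, and 5 of 7 in controls without control water replicate 2. Lipm, an epidermal acid lipase, had 745, 1293 and 812 normalised counts in knockout olive oil/acetone libraries and 1071 and 1271 in knockout water libraries. It had 744, 956 and 1216 in control olive oil/acetone libraries and 704 and 737 in control water libraries. Both knockout water libraries lay above both control water libraries (0.69 ± 0.28, limma adjusted p = 0.963). Of the 3489 exonic bases of Lipm, 1219 also lie in exons of Ankrd22 on the opposite strand. Whether Ankrd22 reads contribute to Lipm was not tested. Lipk had 65.2, 269 and 62.3 against 34.4 and 46.2 in knockouts and 65.7, 47.8 and 100.2 against 25.0 and 27.2 in controls (1.35 ± 0.58 in each, limma adjusted p = 0.128 and 0.369). Without knockout olive oil/acetone replicate 2 the difference of Lipk in knockouts was 0.66. Lipn had 155, 232 and 66.99 in knockouts under olive oil/acetone and 96.1 and 141 under water, and in controls 153, 133 and 118 against 65.4 and 70.3 (0.97 ± 0.44, limma adjusted p = 0.387). Smpd3, a neutral sphingomyelinase, had 707, 614 and 186 in knockouts under olive oil/acetone and 236 and 212 under water, and in controls 691, 312 and 506 against 270.4 and 163 (1.18 ± 0.52, limma adjusted p = 0.382). Smpd1, the acid sphingomyelinase that turns sphingomyelin into ceramide, and Acer1, an epidermal alkaline ceramidase, were highest in knockout olive oil/acetone replicate 2, at 1528 and 1802. Asah1, the acid ceramidase, was lowest there, at 684 against 771 to 1302 in the other 9 libraries.

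Over all 34 genes, olive oil/acetone against water in knockouts gave 2 calls, 1 higher and 1 lower, where 13.4% of the 15958 genes tested were called, 6.74% higher and 6.69% lower. At an unadjusted p under 0.05 there were 8 members, 3 higher and 5 lower, where 35% of all genes passed, 17.2% higher and 17.8% lower. The groups did not overlap for 5 members higher and 7 lower, where all genes gave 28.8% and 29.2%. The members' share of calls was thus not above that of all genes. Their log2 differences had a median of 0.13 with 22 of 34 positive, against 0.01 and 50.5% positive over all genes. Without knockout olive oil/acetone replicate 2 the median was -0.01 with 16 of 34 positive.

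In controls the same treatment gave 0 calls among the members with limma, where 0.0627% of all genes were called. At an unadjusted p under 0.05 there were 13 members, 11 of them higher and 2 lower, where 12.9% of all genes passed, 4.91% higher and 7.94% lower. Treated and water libraries did not overlap for 16 members higher and 3 lower, where all genes gave 12.2% and 12%. The median log2 difference was 0.43 with 25 of 34 positive, against 0.00 and 50.1% over all genes, and 0.49 with 25 of 34 positive without control water replicate 2. Without control water replicate 1 it was 0.23 with 24 of 34 positive. Granular layer markers, 8 of 8 of them listed, had positive differences in knockouts (8 of 8, median 1.98) and in controls (8 of 8, median 1.59). In controls this rests in part on control water replicate 1. Klk7 had 699 there and 5832 in control water replicate 2, against 2949 to 4075 in control olive oil/acetone libraries. Flg had 161 and 416 against 2078 to 3947. Below are sums over the granular markers. Summed granular markers were 31134 to 99845 in knockout olive oil/acetone libraries and 15732 to 22091 in knockout water libraries. In controls they were 32930 to 56536 under olive oil/acetone and 11845 to 26721 under water. Summed erythroid markers, 5 of 5 of them listed, were 14460 to 27622 in knockout olive oil/acetone libraries and 1175 to 2540 in knockout water libraries, and the control groups overlapped. Summed epidermal T cell markers, 7 of 8 of them listed, were 3568 to 9066 in control olive oil/acetone libraries and 10031 to 14862 in control water libraries, and the knockout groups overlapped. The part of granular cells, blood and T cells in the members' differences was not tested. DESeq2 called 2 members in controls, Cers4 (lower, adjusted p = 0.0194) and Degs1 (higher, adjusted p = 0.0479), where it called 2.36% of all genes, and edgeR called 0 members.

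**Figure D3:**
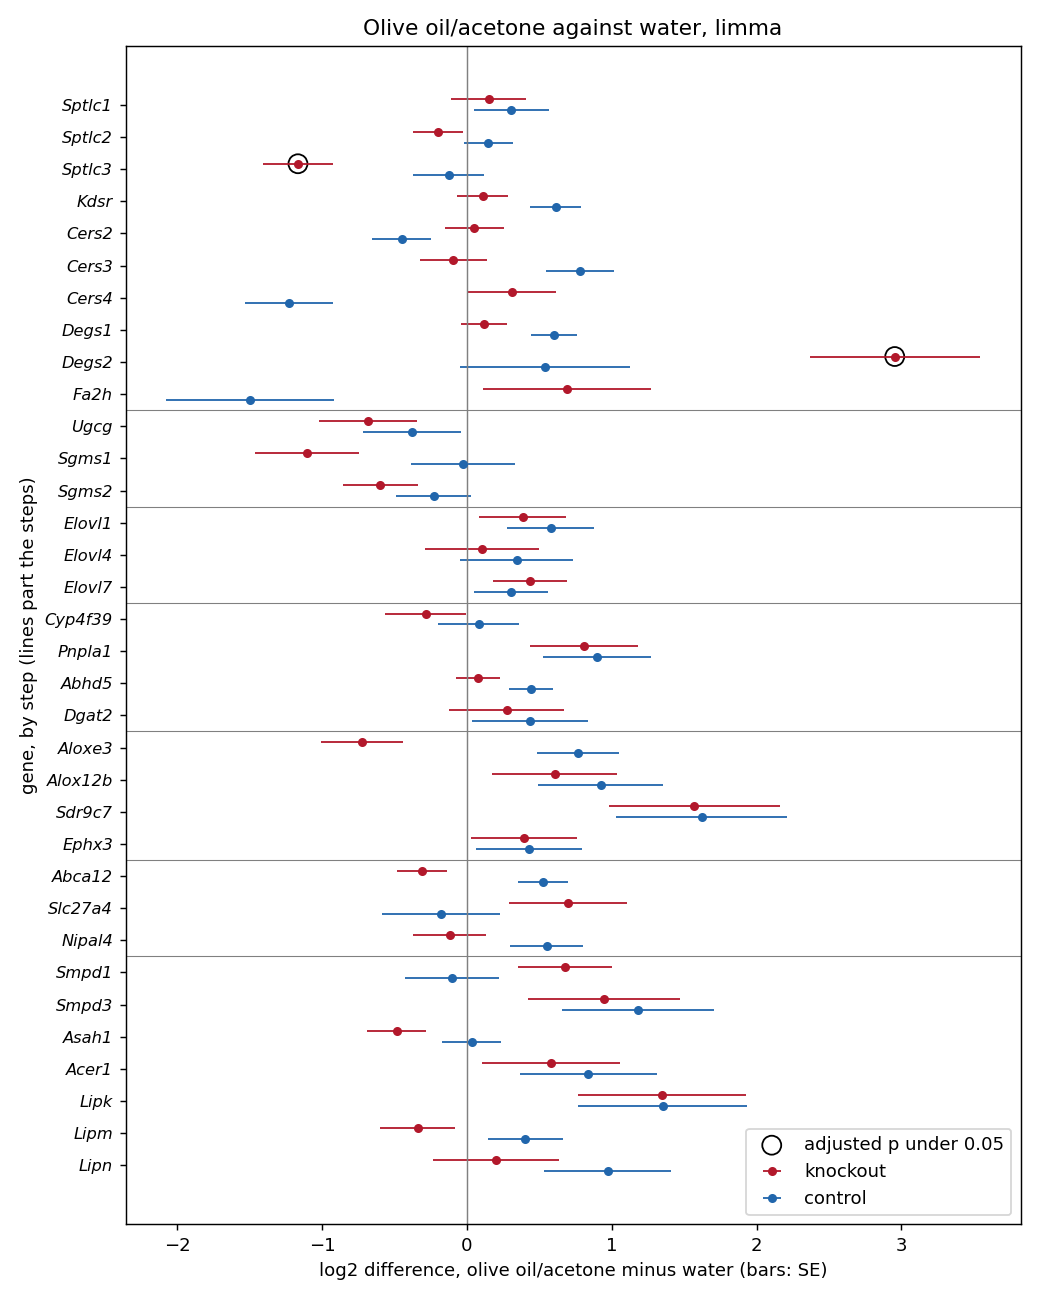
Log2 difference of olive oil/acetone minus water (x axis) of each gene (rows) in knockouts (red) and controls (blue), with bars of 1 SE from limma and rings at adjusted p under 0.05. Rings stand at Degs2 (2.95) and Sptlc3 (-1.17) in knockouts, and more of the control points lie right of 0.

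Between genotypes limma called 0 of 34 members under either treatment, where 0.0% of all genes were called under olive oil/acetone and 0.0% under water. Under olive oil/acetone, 5 members had an unadjusted p under 0.05, 4 higher in knockouts and 1 lower, where 12% of all genes passed, 5.47% higher and 6.49% lower. Degs2 was the only member whose knockout and control libraries did not overlap there, where 8.55% of all genes were higher and 8.23% lower without overlap. The median log2 difference was 0.13 with 20 of 34 positive, and -0.13 with 10 of 34 positive without knockout olive oil/acetone replicate 2. DESeq2 called Degs2 (adjusted p = 0.0307) and Fa2h (adjusted p = 0.016) in this comparison, both higher in knockouts, where it called 1.17% of all genes, and edgeR called 0 members.

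Under water, 28 of 34 members had a positive knockout minus control difference, with a median of 0.35, against 48.9% positive and a median of -0.01 over all genes. Knockout and control libraries did not overlap for 20 members higher and 4 lower, where all genes gave 16.9% and 17.8%. At an unadjusted p under 0.05 there were 7 members, all higher, where 4.98% of all genes passed, 1.76% higher and 3.22% lower. These were Sptlc3, Cers3, Degs1, Aloxe3, Abca12, Nipal4 and Lipm, with differences of 0.40 to 0.95 on the log2 scale, and each had a limma adjusted p of 0.963. DESeq2 and edgeR called 0 members, where DESeq2 called 0.0376% of all genes. With either control water library left out only 1 control library remained, whose spread is taken to be that of the other groups. Without control water replicate 1 the members' median was 0.31 with 27 of 34 positive, and without replicate 2 it was 0.53 with 28 of 34 positive. Granular markers had a median of -0.04 with 4 of 8 positive in this comparison. Their median was -0.49 with 1 of 8 positive without control water replicate 1, and 0.70 with 7 of 8 positive without replicate 2. The part of granular cells in the members' difference under water was not tested. Each of these comparisons shares the control water or knockout water libraries with another, so their directions are not independent.

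The interaction, which asks whether the response to olive oil/acetone differed between genotypes, gave 0 calls among the members with limma, where 0.0% of all genes were called. Y-linked transcripts parted the treatments in both genotypes, so here too treatment and sex cannot be told apart. Among members 27 of 34 had a negative interaction, with a median of -0.28, against 0.03 over all genes. The median was -0.53 without knockout olive oil/acetone replicate 2, -0.13 without control water replicate 1, with 18 of 34 negative, and -0.46 without control water replicate 2. At an unadjusted p under 0.05 there were 7 members, with Degs2, Cers4 and Fa2h positive and Sptlc3, Cers3, Aloxe3 and Abca12 negative, where 11.9% of all genes passed, 6.15% positive and 5.73% negative. DESeq2 called Cers4 (adjusted p = 0.0497), where it called 1.45% of all genes, and edgeR called 0 members.

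**Figure D4:**
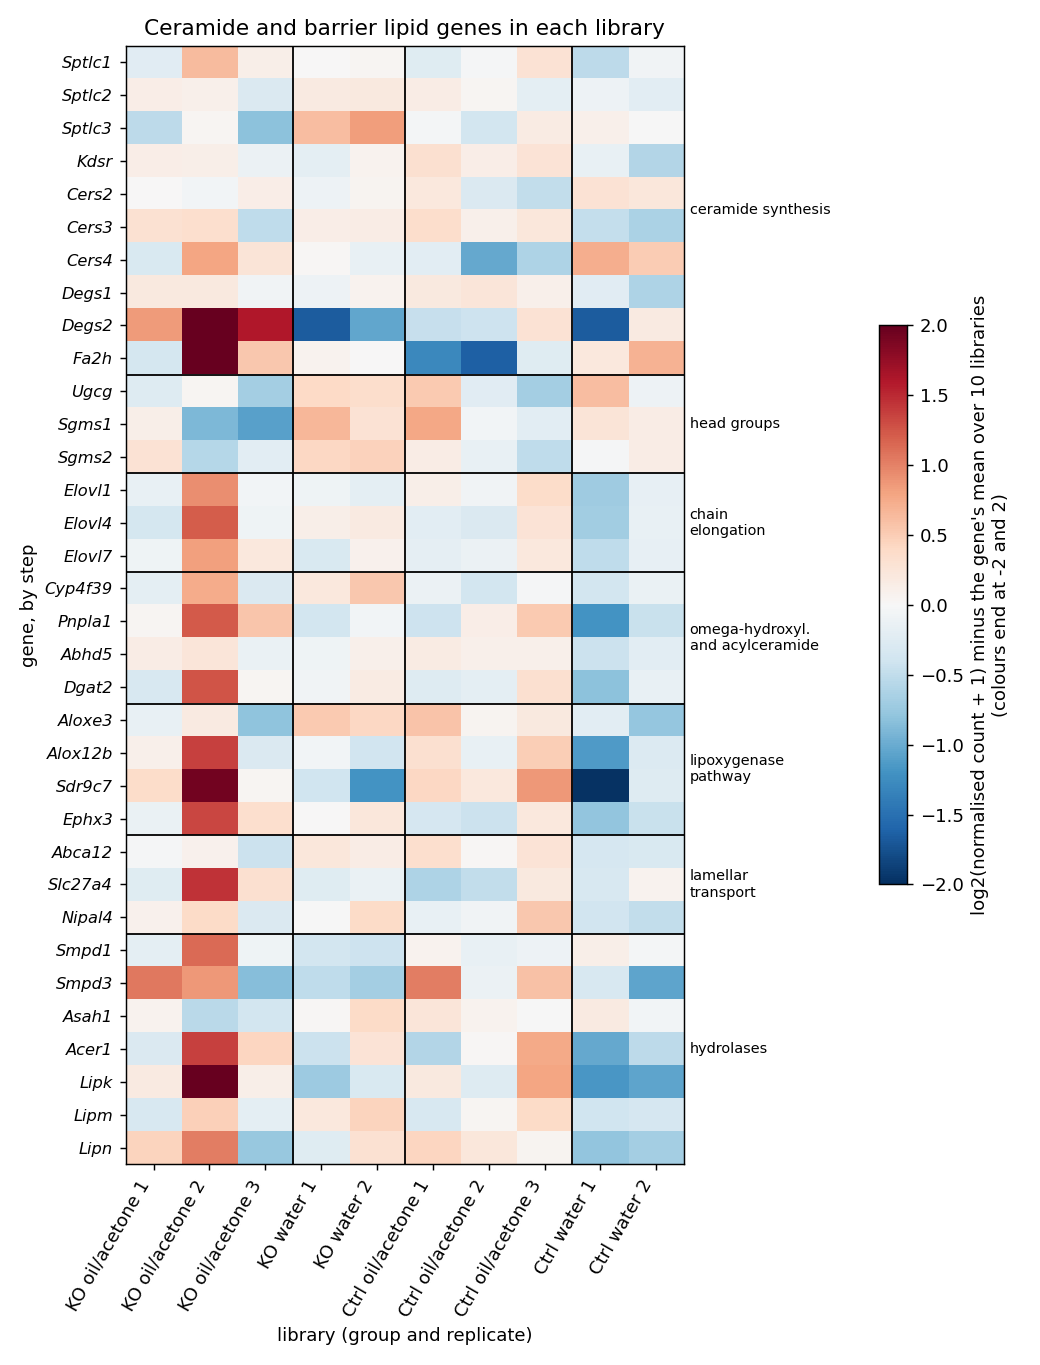
Log2(normalised count + 1) minus the gene's mean over the 10 libraries (colour, ends at -2 and 2) for the 34 genes (rows, by step) in each library (columns). Knockout olive oil/acetone replicate 2 is the highest library for 20 genes and control water replicate 1 the lowest for 14.

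Single libraries carried much of the spread among the members. Knockout olive oil/acetone replicate 2 was the highest library for 20 of 34 members (58.8%), where it was the highest for 17.8% of all genes. Its members had a median deviation of 0.77 from their own mean over the 10 libraries, and the other 9 libraries had medians of -0.38 to 0.22. By step, its median deviation was 1.35 for the lipoxygenase pathway, 1.02 for hydrolases and 0.99 for omega-hydroxylation and acylceramide formation, and -0.56 for head groups. This library also had the highest summed granular and erythroid markers of the 10, at 99845 and 27622, and the lowest summed basal markers, at 521616. Control water replicate 1 was the lowest library for 14 members (41.2%, where it was the lowest for 15.5% of all genes) and had the lowest summed granular markers, at 11845. The members' ratio of highest to lowest library ran from 1.40 for Sptlc2 to 17.5 for Degs2, with 15.2 for Sdr9c7 and 12.5 for Fa2h.

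**Figure D5:**
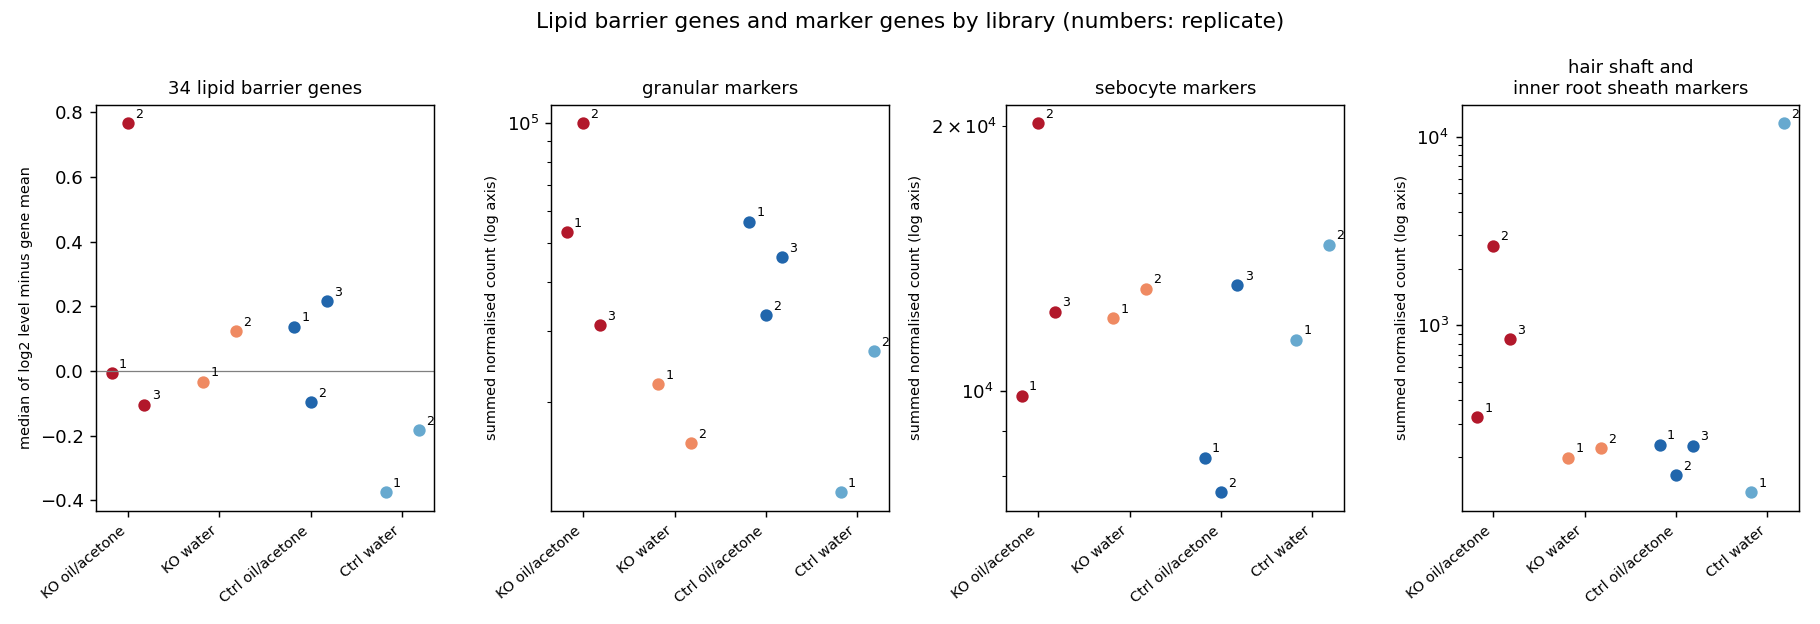
Each library (points, by group, numbered by replicate) with the members' median log2 level minus the gene mean (left panel, y axis) and the summed normalised counts of granular, sebocyte and hair markers (other panels, y axes on log scales). Knockout olive oil/acetone replicate 2 has the highest member median (0.77), and control water replicate 2 has the highest hair marker sum (11801).

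A further 49 genes of the same pathways, from 53 named, were tested for comparison, and 5 of them (3 higher, 2 lower) were called in knockouts under olive oil/acetone, where 13.4% of all genes were called. Their share of calls was not above that of all genes. Fabp5, the epidermal fatty acid binding protein, rose by 2.16 ± 0.47 on the log2 scale (limma adjusted p = 0.0227), with 16084 ± 9793 normalised counts in knockout olive oil/acetone libraries and 3205 ± 300.2 in knockout water libraries (SD, n = 3 and 2). Sgpp2, a sphingosine 1-phosphate phosphatase, rose by 4.14 ± 0.68 (limma adjusted p = 0.012), at 107 ± 61.2 and 4.97 ± 3.29. Elovl3, an elongase of sebaceous glands and also a sebocyte marker, rose by 2.36 ± 0.68 (limma adjusted p = 0.0456), at 511 ± 460.1 and 71.9 ± 1.87, and by 1.64 without knockout olive oil/acetone replicate 2. Acer3, an alkaline ceramidase, fell by 1.03 ± 0.22 (limma adjusted p = 0.0223), and Cerk, the ceramide kinase, fell by 0.75 ± 0.21 (limma adjusted p = 0.0441). Each of the 5 calls was lost without either knockout water library, when the difference of Sgpp2 was 3.54 without replicate 1 and 4.73 without replicate 2. The calls of Fabp5, Acer3, Cerk and Elovl3 were also lost without knockout olive oil/acetone replicate 2 or 3, and those of Cerk and Elovl3 without control olive oil/acetone replicate 2. In the other 4 comparisons limma called 0 of these 49 genes. Their median in controls was 0.09 with 29 of 49 positive, and under water between genotypes 0.06 with 27 of 49 positive.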

How the data were processed

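Each library had 1 deposited file with a normalised read signal for every gene. The submitters' processing notes name GRCm38 (mm10), DESeq2 1.26.0, featureCounts 2.0.0 and Trimmomatic 0.38. Per the labels' protocols, total RNA went into a NEBNext Ultra RNA kit. For the aligner, annotation and strand, the entry is: not given in the sources used here. In each library all values were whole multiples of 1 step (100% within 0.1 read), which recovered reads. Symbols and exon lengths came from GENCODE M21. Files listed 16014 to 17983 genes, and the 15987 listed in all 10 were used, because a joint model needs every value. Values were divided by median-of-ratios factors (0.995 to 1.004), and 15958 genes with 10 or more in at least 2 libraries entered limma 3.58.1 as log2(value + 1) (R 4.3.3, trended eBayes, 4 group means, two-sided, Benjamini-Hochberg over all genes). A gene was called at an adjusted p under 0.05. Folds on this scale understate changes of low genes.

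Alternatives were a pseudocount of 5, no filter, equal totals, 2 groups alone, a replicate block, edgeR 4.0.16 and DESeq2 1.42.0 on recovered reads, and each library left out. The limma step was tested on simulated data, and the edgeR and DESeq2 steps were not. The members, lists and motifs were chosen with earlier results of these data known. The naming rule gave per-library values for called members and, in other steps, for the member with the lowest p. Further genes were named after their values were seen.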

Additional observations from a re-analysis of the deposited data

How the results depend on the processing

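The 2 members called under olive oil/acetone in knockouts were also 2 with a pseudocount of 5, no filter, equal totals and edgeR, and 2 without knockout olive oil/acetone replicate 2 and control water replicate 2 together, a setting chosen after seeing the data. They were 4 with the 2 groups alone (Ugcg and Sgms1 added) and 5 with DESeq2 (Lipk, Sdr9c7 and Sgms1 added). In these 2 settings the calls over all genes also rose, from 2143 to 3907 and 3626. Leaving out 1 olive oil/acetone library gave 0 to 5 members called. In controls the 0 calls became 2 with DESeq2, and leaving out 1 library gave 0 to 1, the 1 being Cers4 without control olive oil/acetone replicate 1 (limma adjusted p = 0.0412). Between genotypes under olive oil/acetone DESeq2 gave 2 and for the interaction 1, and leaving out 1 library gave 0 to 0 in both and under water. Over all genes the 2143 calls in knockouts were 3907 with the 2 groups alone, 3626 with DESeq2, 1023 without both libraries and 9 to 3141 when 1 was left out. The 10 calls in controls were 354 with DESeq2, 33 without both libraries and 6 to 470 when 1 was left out. The 0 calls elsewhere were 168, 6 and 196 with DESeq2 under olive oil/acetone, under water and for the interaction, 2 with the 2 groups alone under olive oil/acetone, 1 under water without both libraries, and at most 51, 1 and 72 when 1 library was left out. With equal totals the median of all genes in knockouts was 0.13 in place of 0.01, with 1346 genes higher and 845 lower against 1076 and 1067. The members' median was then 0.26, and for the interaction -0.12 with 12 of 34 positive against 0.19 over all genes. Of 803 alternative values for 45 gene comparisons, 0 changed sign, 28 lost a call and 15 gained one. The 45 were members with an unadjusted limma p under 0.05, or further pathway genes called, in the main fit. That choice makes a change of sign unlikely. The cause of the changes in calls and medians was not tested.

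Whether the replicate numbers pair the samples is not known. Same-numbered knockout and control libraries under olive oil/acetone had correlations of 0.307, -0.105 and 0.131 of their deviations from group means across genes. Same-numbered knockout olive oil/acetone and control water libraries had 0.410 and 0.450. The deviations of the 2 control water libraries from their mean are equal and opposite, so these 2 values are not separate checks. The 0.450 joins the 2 libraries with the highest summed hair shaft and root sheath markers. Between the olive oil/acetone groups, not every library correlated best with its own number. Knockout olive oil/acetone replicate 2 had -0.105 with control olive oil/acetone replicate 2 and 0.257 with replicate 3. With the number as a replicate block, 3 members were called in knockouts (Sgms1 added) and 0 in each other comparison, with 2766 and 58 genes called over all genes under olive oil/acetone against water in knockouts and controls. Depth limits low genes, such as Degs2, with 28 reads over both knockout water libraries.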
